A study of Mus musculus with 4 samples.

Results

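Osteopontin, its receptors and clusterin were followed as 8 genes in spatial transcriptomes of mouse pancreas with caerulein-induced acute pancreatitis. The genes are Spp1, Cd44, Clu, Itgav, Itgb1, Itgb3, Itgb5 and Itgb6. They were chosen by name as the ligand, its receptors and an injury gene, with earlier results of these data known. All 8 of them, out of 32285 features used, held counts in at least 1 section. The assay, CytAssist Visium on formalin-fixed tissue, hybridises gene-specific probes to RNA and captures them on a slide of barcoded spots, so a spot is a small patch that can hold several cells of different types. A molecular barcode, the UMI, lets every captured molecule count only once.

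There were 4 sections, each from its own mouse, on a C57Bl/6 background at 4 weeks of age. All 4 mice carried Pdx1-Cre, a transgene that acts in the pancreatic epithelial lineage, and all 4 were fasted for 12 h and given caerulein, a cholecystokinin analogue, at 50 μg/kg in 8 hourly intraperitoneal injections, with collection 18 h after the first. The 2 control sections, labelled PDX1-Cre (WT), are called Ehmt2+/+ after the study. The other 2, labelled EHMT2 knockout (KO) PDX-Cre, are called Ehmt2 fl/fl, and in these Cre inactivates the histone methyltransferase gene Ehmt2 in the epithelium, while immune cells, fibroblasts and vessels keep it. No section of a saline-treated mouse was analysed here. Genotypes below are those of the labels, and values for all sections follow the order Ehmt2+/+ replicates 1 and 2, then Ehmt2 fl/fl replicates 1 and 2.

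Osteopontin is a secreted phosphoprotein of the extracellular matrix that duct cells, injured epithelium and macrophages are known to make. It binds integrins that contain the alpha v chain, encoded by Itgav, through an Arg-Gly-Asp motif, and it is also a ligand of CD44, the main receptor for hyaluronan. Clusterin is a secreted chaperone that is induced in damaged epithelium, pancreatitis included.

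The integrin-binding motif of osteopontin is shown because it is what links the ligand to the alpha v integrins among the receptors described here. In the mouse reference it lies in exon 7 of Spp1 at chr5:104439481-104439489 on the plus strand of GRCm38, within the coding sequence. The stretch below, chr5:104439445-104439525, is from the RefSeq genome with GENCODE exons, with the Arg-Gly-Asp codons in capitals, the 1 place in the reading frame where these codons occur in a row. It is reference sequence, and the probe sequences were not used here.

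Spp1: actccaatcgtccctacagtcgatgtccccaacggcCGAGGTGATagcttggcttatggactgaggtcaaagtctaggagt

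The sections differed in ways that bear on every value. Over tissue they held 43803829, 8697030, 7000825 and 8501140 UMIs, so Ehmt2+/+ replicate 1 was the deepest by far. Digestive enzyme genes took 62.6% and 50.6% of these UMIs in Ehmt2+/+ and 21.3% and 20.6% in Ehmt2 fl/fl, which moves the share left for every other gene. Olfactory receptor genes, which have no known use in the pancreas and serve as a measure of background, had median levels of 0.251, 5.40, 8.28 and 12.8 UMIs per 1000000 UMIs over tissue (CPM). Ehmt2 itself was at 19.7, 3.79, 10.4 and 11.9 CPM, and therefore does not check the labels (log2 fold change of −2.65, SE 0.79, Benjamini-Hochberg adjusted p = 0.226 in the quasi-likelihood test of edgeR). Of the olfactory receptor genes, 0%, 79.9%, 34.3% and 57.6% were at or above it in CPM. Only in Ehmt2+/+ replicate 1 was Ehmt2 clear of background, so its fold change rests on background values in the other sections. The Y-linked genes Ddx3y, Uty, Kdm5d and Eif2s3y held 0 or 1 UMI each in both Ehmt2+/+ sections and 36 to 150 in each Ehmt2 fl/fl section, so sex and genotype cannot be told apart. Whole-section levels cannot tell fewer cells of a type from less RNA per cell.

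Spp1 had a larger share of the UMIs in both Ehmt2 fl/fl sections. Its level was 144 and 165 CPM in Ehmt2+/+ and 945 and 636 CPM in Ehmt2 fl/fl, from 6327, 1433, 6614 and 5410 UMIs. The groups did not overlap, and the 2 Ehmt2+/+ sections lay close together although their depth differed greatly. The means were 155 ± 14.4 CPM and 791 ± 218 CPM (SD, n = 2 each), a ratio of 5.11 (exact two-sided permutation test, p = 0.333, the smallest that 2 sections against 2 allow). Leaving the digestive enzymes out of the total lowered the ratio to 2.78, still without overlap. Spp1 (ENSMUSG00000029304) spans chr5:104435118-104441050 on the plus strand.

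Cd44, which encodes the hyaluronan and osteopontin receptor of leukocytes and injured epithelium, showed the same order. It stood at 66.4 and 88.3 CPM in Ehmt2+/+ and at 553 and 475 CPM in Ehmt2 fl/fl. Its groups did not overlap either, with means of 77.3 ± 15.5 and 514 ± 55.6 CPM (SD, n = 2 each) and a ratio of 6.65 (exact permutation test, p = 0.333). The ratio of Cd44 was 3.65 with the digestive enzymes left out of the total, again without overlap. Cd44 (ENSMUSG00000005087) lies on the minus strand at chr2:102811141-102901665.

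The alpha v chain and its beta partners were far sparser, with no more than 1045 UMIs in any section. Itgav (ENSMUSG00000027087, chr2:83724397-83806916) was at 6.37, 3.10, 27.1 and 13.8 CPM. Its 2 lower values came from Ehmt2+/+, but those in Ehmt2+/+ replicate 2 and Ehmt2 fl/fl replicate 2 rested on 27 and 117 UMIs. Itgav was above 95% of the olfactory receptor genes in 2 of the 4 sections.

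Itgb1 (ENSMUSG00000025809, chr8:128685654-128733200), the widely used beta chain that pairs with many alpha chains, was at 23.9, 18.1, 39.1 and 35.3 CPM. Itgb5 (ENSMUSG00000022817, chr16:33829665-33949338), a vitronectin-binding partner of alpha v, was at 11.3, 16.4, 50.0 and 49.3 CPM. Both were higher in CPM in each Ehmt2 fl/fl section than in each Ehmt2+/+ section, by a ratio of means of 1.78 for Itgb1 and 3.58 for Itgb5. Itgb6 (ENSMUSG00000026971, chr2:60598292-60722643), the epithelial beta chain that with alpha v activates latent TGF-beta, was at 4.82, 10.2, 26.3 and 32.9 CPM, a ratio of 3.93. Once digestive enzymes were left out of the total, the ratios were 0.939 for Itgb1, 1.98 for Itgb5 and 2.23 for Itgb6. Itgb1 then overlapped between the genotypes, while Itgb5 and Itgb6 did not.

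Itgb3 (ENSMUSG00000020689, chr11:104608000-104670476), the beta chain of platelets, endothelium and osteoclasts, could not be separated from background. It held 20, 55, 58 and 104 UMIs, or 0.457, 6.32, 8.28 and 12.2 CPM. Depending on the section, 13.7% to 54.5% of olfactory receptor genes were at or above it in CPM, and its order over sections was that of their median.

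Clu was different from the other genes in level and in direction. It held 632795, 92552, 81890 and 75274 UMIs, and its levels of 14446, 10642, 11697 and 8855 CPM overlapped between the genotypes. The means were 12544 ± 2690 and 10276 ± 2010 CPM (SD, n = 2 each; exact permutation test, p = 0.667). With the digestive enzymes left out of the total, both Ehmt2 fl/fl sections fell below both Ehmt2+/+ sections, at 14868 and 11146 against 38624 and 21521 UMIs per 1000000. Clu (ENSMUSG00000022037) lies at chr14:65968483-65981547.

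**Figure D1:**
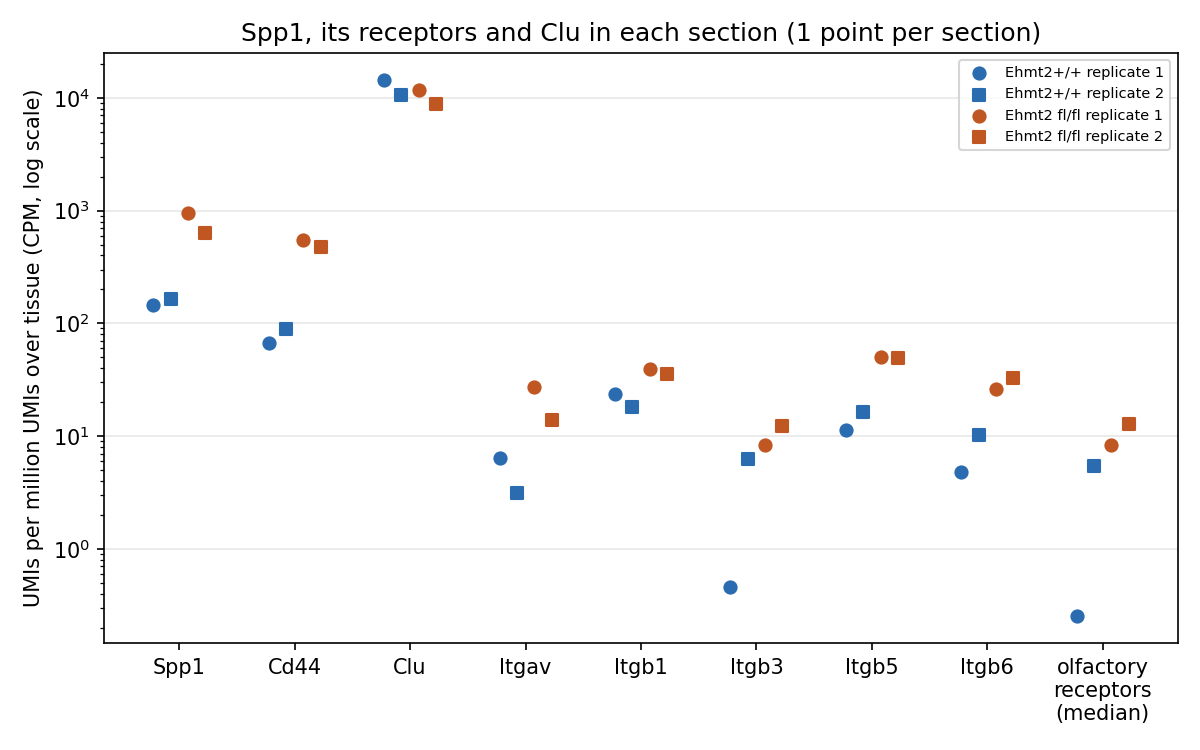
The vertical axis gives CPM on a log scale, with 1 point for each section and no error bars, for the 8 genes and for the median olfactory receptor gene. Both Ehmt2 fl/fl sections lie above both Ehmt2+/+ sections for every gene but Clu, and the median olfactory receptor gene shows the same order, so points should be compared within a gene.

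Higher CPM in both Ehmt2 fl/fl sections was the rule over all genes. Of 20066 genes tested, 91.1% had both Ehmt2 fl/fl sections above both Ehmt2+/+ sections in CPM, as did 7 of the 8 genes here, and 0.767% had them below. The count of 7 is therefore no result about these genes. With the digestive enzymes left out of the total, the share of all genes without overlap was not determined. The separations on that scale can therefore not be set against all genes. The size of the ratio in CPM was compared with that of 7973 genes that exceeded 95% of the olfactory receptor genes in every section. This comparison was added after the values were seen. Their median ratio was 2.42, and 3.65% of them had a ratio at least as large as that of Spp1 and 1.59% as large as that of Cd44. At the other end, 98.3% had a ratio at least as large as that of Clu. Among the integrin chains present above background in all sections, this share was 10.3% for Itgb6, 16.6% for Itgb5 and 76.2% for Itgb1. The median of the olfactory receptor genes themselves had a ratio of 3.71, so those of Itgb5 (3.58) and Itgb6 (3.93) were near background, while Spp1 and Cd44 lay above it.

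The model fitted over all genes called none of the 8. It called 11 genes higher in Ehmt2 fl/fl, 0.0548% of those tested, and 8 lower, 0.0399%, at a Benjamini-Hochberg adjusted p under 0.05 in the quasi-likelihood test of edgeR. None of the 8 genes had an unadjusted p under 0.05 in that test, where 0.369% of all genes passed in the higher and 4.64% in the lower direction. On the log2 scale, Ehmt2 fl/fl over Ehmt2+/+ gave a fold change of 0.34 for Spp1 (SE 1.19, edgeR adjusted p = 0.902), 0.77 for Cd44 (SE 1.11, edgeR adjusted p = 0.872) and −2.48 for Clu (SE 2.25, edgeR adjusted p = 0.872). That of Itgb1 was −1.37 (SE 0.87, edgeR adjusted p = 0.872), and those of Itgav, Itgb3, Itgb5 and Itgb6 lay between −0.20 and 0.43. Standard errors of this size leave differences of several fold in either direction undetected.

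These fold changes depended on the scaling. The fit used TMM factors, which ranged from 0.282 in Ehmt2+/+ replicate 1 to 2.11 in Ehmt2 fl/fl replicate 2, and the median log2 fold change of all genes was 0.25. With library sizes alone that median was 1.64, and Spp1 at 2.35 (edgeR adjusted p = 0.0427) and Cd44 at 2.73 (edgeR adjusted p = 0.0324) passed the threshold. That fit called 188 of 20066 genes higher and 7 lower in Ehmt2 fl/fl. With DESeq2 the median was −0.04, Spp1 was at −0.13 (DESeq2 adjusted p = 0.894), and Clu at −2.99 passed (DESeq2 adjusted p = 0.0225). DESeq2 called 7 of 20066 genes higher and 394 lower. After TMM scaling none of the 8 genes lay higher in both Ehmt2 fl/fl sections, against 19.4% of all genes, and 1 of the 8, Clu, lay lower in both, against 16%. Leaving out Ehmt2+/+ replicate 2 gave −1.19 for Itgav, −2.24 for Itgb1, 1.59 for Itgb3 and −0.75 for Itgb5. Leaving out Ehmt2+/+ replicate 1 gave 1.84 for Itgav. Both of these fits left a lone section in Ehmt2+/+, so only the size of the change is given.

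Spots were then compared at equal depth. Spots with at least 500 UMIs, 6144, 7871, 6483 and 6462 of them, were thinned to 500 UMIs each. At this depth 7.17% and 7.76% of the spots in Ehmt2+/+ held Spp1, against 35.5% and 26.3% in Ehmt2 fl/fl. Cd44 was held by 3.99% and 4.45% against 24.1% and 21.5%. For both genes the gap between genotypes was wider than that between replicates, with differences of 23.5 percentage points for Spp1 and 18.6 for Cd44 (exact two-sided permutation tests, p = 0.333 each, the smallest possible). On this measure 89.5% of all genes lay higher in both Ehmt2 fl/fl sections. With digestive enzymes left out, 500 UMIs of other genes were drawn from each spot that held as many. These were 5547, 2556, 6017 and 5949 spots, so Ehmt2+/+ replicate 2 lost most of its spots. The shares were 17.1%, 15.2%, 42.8% and 31.7% for Spp1 and 9.24%, 8.21%, 29.3% and 25.9% for Cd44. How many of all genes were without overlap in this draw was not determined.

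The median olfactory receptor gene was held by 0.0165%, 0.270%, 0.424% and 0.663% of the thinned spots, and none of these genes reached Spp1, Cd44 or Clu in any section. Without thinning the genotypes overlapped for Spp1. Cd44 did not overlap over tissue, at 35.0%, 7.07%, 37.4% and 35.1% of the spots, but the gap was narrow. Over all spots on tissue Spp1 was then found in 52.4% of the spots of Ehmt2+/+ replicate 1 (95% Clopper-Pearson interval 51.2% to 53.7%), 12.2% of those of Ehmt2+/+ replicate 2 (11.6% to 12.9%), and 49.9% (48.8% to 51.0%) and 39.4% (38.4% to 40.5%) of those of Ehmt2 fl/fl. The median spot held 6285 UMIs in the first of these sections and 759, 914 and 932 UMIs in the others.

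The integrin chains were each in under 3% of thinned spots. Itgb5 was in 0.613%, 0.836%, 2.60% and 2.48% of them, Itgb6 in 0.243%, 0.506%, 1.42% and 1.72%, and Itgb1 in 1.19%, 0.893%, 1.92% and 1.76%. Itgav was in 0.352%, 0.174%, 1.32% and 0.739%. In Ehmt2+/+ replicate 2 and Ehmt2 fl/fl replicate 2, 82.6% and 38.6% of the olfactory receptor genes were in at least as large a share as Itgav, so its share there is background. The share of Itgb3 was 0.0314%, 0.383%, 0.430% and 0.620%, again at the level of olfactory receptor genes.

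Clu was nearly everywhere. It was in 99.8% and 98.3% of thinned spots in Ehmt2+/+ and in 95.9% and 91.0% in Ehmt2 fl/fl, a difference of −5.62 percentage points (exact permutation test, p = 0.333). Over all genes, 89.5% were in a larger share of thinned spots in both Ehmt2 fl/fl sections, as were 7 of the 8 here, and 0.849% in a smaller share in both, as was Clu.

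**Figure D2:**
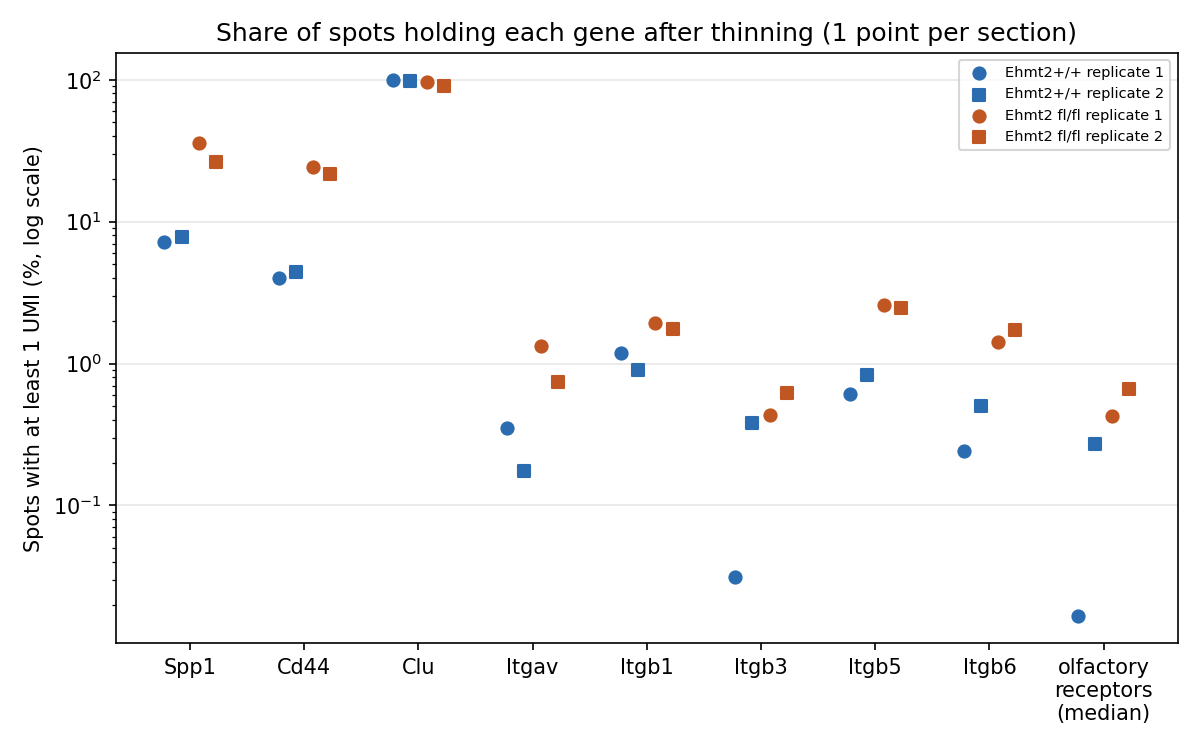
The vertical axis gives the percentage of spots with at least 1 UMI of a gene, on a log scale, after each spot with at least 500 UMIs was thinned to 500, with 1 point for each section and the median olfactory receptor gene at the right. Spp1 and Cd44 separate the genotypes well above the olfactory receptor level, Clu is near 100% in every section, and Itgb3 lies with the olfactory receptor genes.

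Spots below the tissue limit also held RNA of these genes. There Spp1 was at 123, 138, 628 and 420 CPM and Cd44 at 97.2, 161, 445 and 535 CPM, both higher in the Ehmt2 fl/fl sections. Spp1 was lower there than over tissue in every section, and Cd44 was higher in all but Ehmt2 fl/fl replicate 1. These spots held 62, 24, 86 and 51 UMIs of Spp1 and 49, 28, 61 and 65 of Cd44 in all. The limit was set from the UMI histogram alone, so whether these spots lay off the tissue is not known. A UMI of either gene in a spot may therefore not come from a cell in that spot, which limits every statement below on where the genes lie within a section.

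Because enzyme transcripts take up so much of the acinar signal, spots were split by the share of their UMIs from 35 digestive enzyme genes, and levels were given per 10000 UMIs of all other genes. Spots of 20% to 50% enzyme UMIs were present in all sections, 171, 2809, 3220 and 2802 of them. In these, Spp1 was at 3.91 and 3.74 per 10000 in Ehmt2+/+ and at 11.2 and 8.60 in Ehmt2 fl/fl. Cd44 was at 2.59 and 2.22 against 6.74 and 6.09. Both genes were higher in Ehmt2 fl/fl without overlap, by ratios of 2.59 and 2.66 (exact permutation tests, p = 0.333 each, the smallest possible). This order was not the rule here, since 17.8% of 20275 genes lay higher in both Ehmt2 fl/fl sections in such spots and 7.19% lower. The 91.1% of the whole sections was in CPM with enzyme UMIs in the total, so it cannot be compared directly with this share.

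The ratios of both genes were also among the largest in these spots. Of 6427 genes above 95% of the olfactory receptor genes in all sections in these spots, 0.871% had a ratio at least as large as that of Spp1 and 0.716% as that of Cd44, around a median ratio of 1.06. Since the genes were chosen with earlier results of these data known, these ranks are a description and no test. Of the integrin chains, Itgb5 (0.264, 0.406, 0.556 and 0.595 per 10000) and Itgb6 (0, 0.219, 0.389 and 0.376 per 10000) did not overlap between genotypes. The ratio of Itgb5, 1.72, was near the 1.52 of the olfactory receptor median in these spots. Its level was above 95% of the olfactory receptor genes in all 4 sections, and 6.27% of the 6427 genes had as large a ratio. Whether its separation stands clear of background was not tested. Itgb6 was above 95% of the olfactory receptor genes in only 2 of the 4 sections, so its separation does not stand clear of background. In Ehmt2+/+ replicate 1 there was no UMI of Itgb6 in these 171 spots. Itgav, Itgb1 and Itgb3 overlapped, and so did Clu at 219, 188, 207 and 167 per 10000.

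The spots compared still differed within that range. Enzymes made up 41.7% and 42.0% of their UMIs in Ehmt2+/+ and 29.6% and 30.2% in Ehmt2 fl/fl. Narrower ranges were therefore added after seeing these values. In spots of 30% to under 40% enzyme UMIs, Spp1 was at 3.36, 3.40, 10.2 and 8.69 per 10000 and Cd44 at 1.58, 2.83, 5.87 and 5.98, where 15.8% of all genes lay higher in both Ehmt2 fl/fl sections. In spots of 40% to under 50%, Spp1 was at 4.82, 3.87, 8.77 and 7.93 and Cd44 at 3.09, 1.90, 4.96 and 4.68, where 12.7% of all genes did. The values in Ehmt2+/+ replicate 1 rested on 17 and 67 UMIs of Spp1 and on 8 and 43 of Cd44. Clu, which overlapped over the wider range, was at 165, 168, 242 and 190 per 10000 in spots of 30% to under 40%, higher in both Ehmt2 fl/fl sections, and overlapped again from 40% to under 50%. The ratio of Spp1 was 2.80 in the lower and 1.92 in the higher of these ranges, and that of Cd44 was 2.69 and 1.93.

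Summed macrophage, neutrophil and duct markers had the same order between genotypes as Spp1 and Cd44. Macrophage markers summed to 4.13, 3.90, 8.39 and 6.78 per 10000 in the spots of 20% to 50% enzyme UMIs, neutrophil markers to 0.0879, 1.27, 1.61 and 1.71 and duct markers to 16.8, 24.7, 35.7 and 31.2, while acinar markers stood at 322, 384, 187 and 196. Lymphoid markers, at 0.571, 2.26, 1.96 and 1.97, and fibroblast markers, at 42.5, 16.9, 24.6 and 21.5, overlapped between genotypes. Whether the sparse neutrophil sum stood above background was not tested. Over whole sections the summed CPM was 75.6, 160, 844 and 716 for 11 macrophage markers, 3.97, 48.8, 149 and 153 for 7 neutrophil markers and 760, 1217, 2282 and 1912 for 11 duct markers, with no marker of these lists at 0. This order in CPM was not particular to them, beside 91.1% of all genes. Fibroblast markers (432, 657, 2214 and 2089) and endothelial markers (91.5, 175, 488 and 409) had it too. So did the smooth muscle, lymphoid, fat, mesothelial, platelet and blood lists, while islet markers overlapped and acinar markers were lower. After TMM scaling 9 of the 11 macrophage markers and 5 of the 7 neutrophil markers but 1 of the 11 duct markers lay higher in both Ehmt2 fl/fl sections, against 19.4% of all genes. Of other lists, 6 of 10 lymphoid, 4 of 6 platelet and 2 of 9 fibroblast markers did so too, with 0 lower in both. Among the duct markers 1, Krt19, lay lower in both, in CPM as well as after TMM scaling (log2 fold change −2.44, edgeR adjusted p = 0.872). The part of any of these markers in the levels of Spp1 and Cd44 was not tested.

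Within sections, Spp1 and Cd44 followed the enzyme share less steadily than Clu. Clu was higher in spots with more enzyme UMIs in every section. It was at 70.7, 34.9, 100 and 70.7 per 10000 in spots below 20% enzyme UMIs, and at 389, 253, 362 and 335 in spots above 50%. For Cd44 and Spp1, neighbouring ranges that both held over 1000 spots are given, the upper pair in Ehmt2+/+ replicate 2 and the lower pair in each Ehmt2 fl/fl section. From less to more enzyme, Cd44 was at 2.22 and 1.39 in the first of these sections, 7.46 and 6.74 in the second and 6.06 and 6.09 in the third. Spp1 was at 3.74 and 3.22, at 13.4 and 11.2 and at 7.96 and 8.60. Clu in the same pairs was at 188 and 253, at 100 and 207 and at 70.7 and 167, higher with more enzyme in each. When the limits were 10% and 40%, these pairs of ranges also held over 1000 spots each. Spp1 was then at 3.47 and 3.39, at 10.7 and 12.9 and at 6.31 and 8.91. Cd44 was at 2.79 and 1.52, at 6.52 and 7.34 and at 5.40 and 6.38. In the Ehmt2 fl/fl sections both genes were thus higher with more enzyme, so their order depended on the limits.

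The outer ranges were filled very unequally. Below 20% enzyme UMIs there were 8 and 182 spots in Ehmt2+/+ and 3227 and 3625 in Ehmt2 fl/fl, and above 50% there were 5965 and 4880 against 36 and 35. Spp1 in spots below 20% was at 0.451 per 10000 in Ehmt2+/+ replicate 1, from 1 UMI, and at 2.01 in Ehmt2+/+ replicate 2. Above 50% it was at 3.87, 3.22, 6.84 and 6.90, the last 2 from 16 and 20 UMIs, and Cd44 was at 1.76, 1.39, 1.28 and 4.83, the last 2 from 3 and 14 UMIs. Cd44 thus overlapped between genotypes in spots above 50%. With the limit at 40%, where the Ehmt2 fl/fl sections held 91 and 135 UMIs of it, Cd44 was at 1.77, 1.52, 4.60 and 4.70 per 10000 without overlap, a ratio of 2.82 (exact permutation test, p = 0.333). The share of all genes without overlap was not determined for these outer ranges, so this separation cannot be set against all genes.

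**Figure D3:**
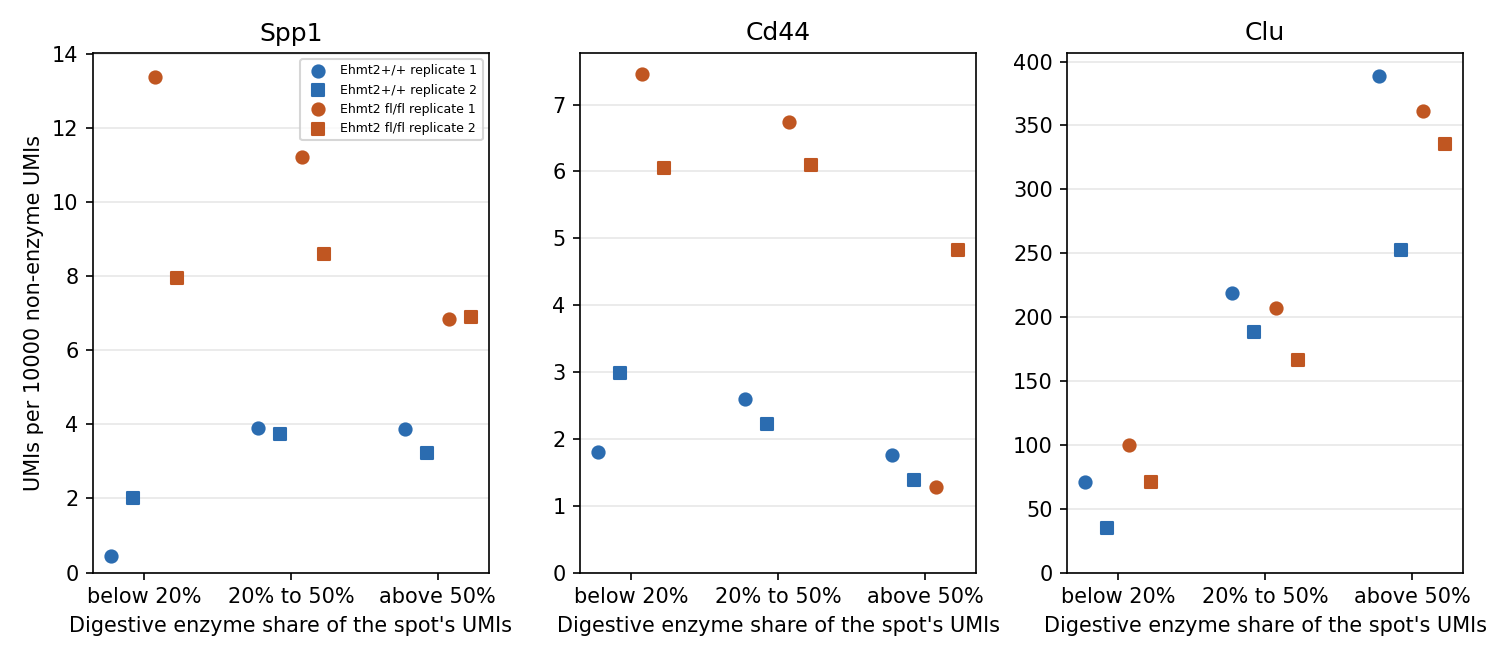
Each panel gives UMIs of 1 gene per 10000 non-enzyme UMIs, on an axis from 0, against the digestive enzyme share of the spot in 3 ranges, with 1 point for each section and no error bars. Spp1 and Cd44 are higher in both Ehmt2 fl/fl sections in the middle range, while Clu is higher with more enzyme in all 4 sections and overlaps between the genotypes there. The points for Ehmt2+/+ replicate 1 on the left rest on 8 spots and those for Ehmt2 fl/fl on the right on 36 and 35.

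Ligand and receptor were then looked for in the same spots, with the thinned spots as before. Spp1 and Cd44 shared 1.19, 1.59, 1.07 and 1.07 times as many spots as their separate shares would give if they were placed independently within a section. This ratio was above 1 in 4 of 4 sections, and in spots with Spp1 the share with Cd44 was 4.75%, 7.07%, 25.9% and 23.0%. Spp1 with the pooled olfactory receptor genes gave 1.15, 1.04, 0.993 and 0.979, so in Ehmt2+/+ replicate 1 the pair stood little above background. The ratio of Ehmt2+/+ replicate 2 came from 27.2 spots expected under independence, and that of Ehmt2+/+ replicate 1 from fewer. When 500 UMIs of genes other than digestive enzymes were drawn instead, only spots that held as many could be used. The 4 ratios were then 1.05, 1.09, 1.04 and 1.06.

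Ratios above 1 in all sections were not particular to Spp1 with Cd44. In the thinned spots, Cd44 with Itgb1 was at 1.05 to 1.47 and Cd44 with Itgb5 at 1.04 to 1.74, each above 1 in 4 of 4 sections. Spp1 with integrin chains gave no ratio above 1 in all sections at this depth. In unthinned spots with at least 500 UMIs, Spp1 with Itgb1 was above 1 in 4 of 4, at 1.01 to 1.30. Spp1 with Itgav was at 0.753 and 0.219 in Ehmt2+/+, where fewer than 2 shared spots were expected in each section at this depth, and at 1.16 and 1.18 in Ehmt2 fl/fl. With Itgb1, Itgb5 and Itgb6 the ratios lay between 0.811 and 1.27. Spp1 and Clu were at 1.05 or less, with none below 1, as a gene present in nearly every spot must be close to 1.

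**Figure D4:**
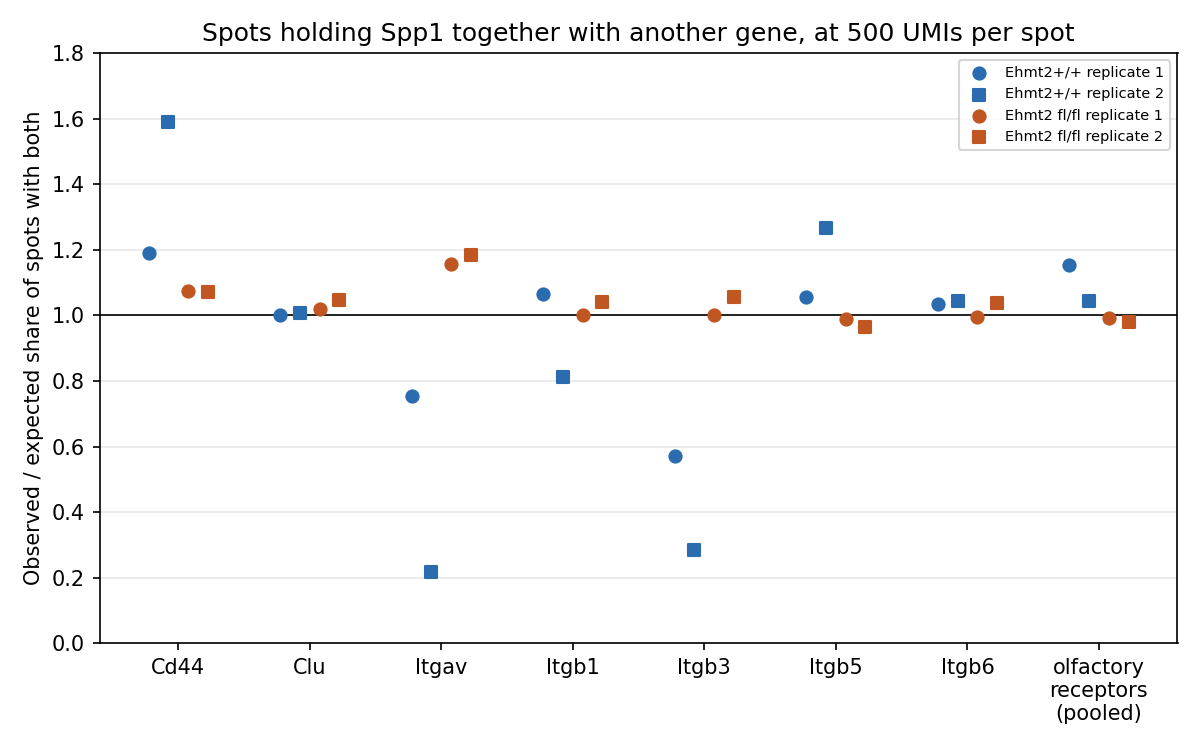
The vertical axis gives the observed over the expected share of spots with Spp1 and a second gene, after thinning to 500 UMIs per spot, with 1 point for each section and a line at 1. At this depth Cd44 is the receptor gene above 1 with Spp1 in all 4 sections, at 1.07 to 1.59. The widely scattered Ehmt2+/+ points of Itgav and Itgb3 rest on few spots.

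Markers in the spots that held Spp1 differed little from those in other spots. The summed duct markers were 1.01, 1.12, 1.11 and 1.16 times as high in spots with Spp1 as without, and the endothelial markers 1.13, 1.20, 1.09 and 1.03 times. Fibroblast markers and neutrophil markers were above 1 in 4 of 4 sections as well, macrophage markers in 3 of 4, and acinar and mesothelial markers in 0 of 4. Acinar markers were at 0.914 to 0.993 and mesothelial markers at 0.722 to 0.970. Around Cd44, macrophage markers were 1.49, 1.83, 1.07 and 1.10 times and fibroblast markers 1.33, 1.26, 1.04 and 1.02 times as high as in spots without it. These ratios are a description over spots of a section and were not tested. Those around Cd44 were taken in thinned spots only, with enzyme UMIs in the total. In unthinned spots the macrophage markers were lower with Spp1 than without it in 4 of 4 sections, at ratios of 0.749 to 0.971, and fibroblast and neutrophil markers were higher in 1 of 4.

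The genes that varied most like each of the 3 abundant genes were sought among 1187 genes, by the mean over sections of the correlation across spots. For Clu these included the zymogen and granule genes Ctrb1 (mean r = 0.52), Cela3b and Sycn. Ctrb1 had r = 0.07 in Ehmt2+/+ replicate 1, where nearly all spots are rich in enzymes, and 0.53, 0.73 and 0.76 in the other sections. For Spp1 they were Clu, the scavenger receptor gene Scara3, the sodium pump subunit Atp1b1, the epithelial adhesion gene Epcam and the transglutaminase Tgm2, with mean r of 0.10 to 0.08 against a median of 0.02 over all genes compared. For Cd44 they were Actb, Tmsb4x, Spp1, Ccl6 and Actg1, with mean r of 0.07 to 0.05. In counts this sparse the correlations of Spp1 and Cd44 are too weak to separate these genes from others, and all points of a section share its library and depth.

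No gene of the wider pathway passed the test. In 7 lists of integrin chains, integrin ligands, enzymes that act on osteopontin, partners of CD44, focal adhesion proteins and partners of clusterin, edgeR's quasi-likelihood test called 0 genes in either direction. An unadjusted p under 0.05 was reached by 0 of 15 alpha chains, 1 of 4 other beta chains, 1 of 17 ligands, 2 of 9 enzymes, 5 of 19 CD44 partners, 0 of 14 focal adhesion genes and 1 of 9 clusterin partners, beside 0.369% of all genes in the higher and 4.64% in the lower direction. Higher in Ehmt2 fl/fl were the enzymes Mmp7 and Mmp9 and the CD44 partners Has1 and Srgn. Lower were Itgb4, the ligand Mfge8, the CD44 partners Adam10, Esrp1 and Esrp2 and the clusterin partner Hspb1, all listed after their values were seen. In CPM all 15 alpha chains, all 9 enzymes and all 14 focal adhesion genes lay higher in both Ehmt2 fl/fl sections, beside 91.1% of all genes, and after TMM scaling 4, 5 and 2 of them did, beside 19.4%, while 2, 1 and 4 lay lower in both, beside 16%. Of the CD44 partners, 7 lay higher and 6 lower after TMM scaling.

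Among genes that act on osteopontin, Mmp7, a matrix metalloproteinase of injured epithelium that cleaves it, was at 2.83, 16.3, 452 and 511 CPM (log2 fold change 4.27, SE 1.19, edgeR adjusted p = 0.161). Tgm2, the transglutaminase that cross-links it, was at 63.2, 114, 654 and 511 CPM (0.89, SE 1.13, edgeR adjusted p = 0.872). Neither passed the test, although Mmp7 was separated by the widest gap of its list. Of the other integrin ligands, Thbs1 (thrombospondin) was at 29.4, 41.4, 366 and 346 CPM and Fn1 (fibronectin) at 22.8, 36.3, 323 and 262 CPM.

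Of the other integrin chains, Itga6, a laminin receptor chain of epithelium, was at 74.9, 95.3, 125 and 125 CPM and Itga3, another, at 8.79, 10.9, 55.0 and 48.5 CPM. Itgb2, the beta chain of leukocytes, was at 24.6, 55.7, 298 and 276 CPM, whereas Itgb4, the beta chain of hemidesmosomes, overlapped between genotypes at 94.1, 53.9, 69.1 and 64.1 CPM. After TMM scaling Itgb2 lay higher and Itgb4 lower in both Ehmt2 fl/fl sections, with log2 fold changes of 1.10 (SE 1.03) and −2.44 (SE 1.08), and neither passed the test (edgeR adjusted p = 0.872 each). On that scale Itga6 lay lower in both as well (−1.44, SE 1.05, edgeR adjusted p = 0.872), and Itga3 overlapped.

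On the side of CD44, its coreceptor for the cytokine MIF, Cd74, was at 49.0, 129, 737 and 445 CPM, and Msn (moesin), which ties CD44 to actin, was at 37.0, 90.6, 562 and 582 CPM. The focal adhesion genes Zyx and Src were at 142, 185, 388 and 326 and at 57.7, 105, 173 and 146 CPM. Hspa5, an endoplasmic reticulum chaperone that binds clusterin, was at 345, 397, 1174 and 930 CPM, and Apoe at 34.04, 78.5, 615 and 166 CPM. All 6 were higher in both Ehmt2 fl/fl sections in CPM, as were 91.1% of all genes, and none passed the test. The fitted log2 fold changes were positive for Cd74 (1.09), Msn (1.45) and Apoe (1.15) and negative for Zyx (−0.84), Src (−0.85) and Hspa5 (−0.52).

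Not all injury genes had this order. Of 18 genes of injured epithelium, 12 lay higher and 5 lower in both Ehmt2 fl/fl sections in CPM, beside 91.1% and 0.767% of all genes. The lower ones were Krt18, Krt19, Reg3b, Reg3g and Tff2. After TMM scaling 2 of the 18 lay higher and 7 lower in both, beside 19.4% and 16% of all genes. Reg3b, a secreted lectin induced in pancreatitis, was at 4033, 3103, 716 and 423 CPM (log2 fold change −4.80, SE 1.99, edgeR adjusted p = 0.833), and the keratin gene Krt18 at 1585, 1030, 870 and 767 CPM (−2.92, SE 1.59, edgeR adjusted p = 0.872).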

How the data were processed

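The data were 4 Visium CytAssist sections. Per the labels and the methods, the authors aligned and counted reads with Space Ranger on mm10 with the mouse probe set (version 1.0), and the deposited values are raw UMI counts of 32589 features per spot. Of these, 304 deprecated features, 0.476% to 0.804% of the UMIs, were left out. The authors' later SCTransform values were not used here.

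Tissue spots had more UMIs than the dip that parts the 2 peaks of their section's UMI histogram (at 472, 149, 149 and 105 UMIs), since the alignment files carry no barcodes. This left 6183, 10285, 7587 and 8443 spots. All sections list the same slide positions, so 13898 barcodes recur in all 4 and name no shared cell. Counts were summed per section, each 1 replicate, and tested with edgeR 4.0.16 (TMM, filterByExpr with a minimum count of 10, quasi-likelihood test, Benjamini-Hochberg over all genes, threshold 0.05) in R 4.3.3, after a test on simulated data. DESeq2 1.42.0 and other scalings were alternatives. Thinning to 500 UMIs used the hypergeometric expectation. Exact permutation tests had 6 splits. Intervals cover counting error only, and p-values cover the spread between these 4 mice. Python 3.11.15 was used for all else. Named genes were the 8 genes, Ehmt2, the 2 pathway genes of each list with the highest mean CPM (or any that passed the test), and the 5 genes most correlated with Spp1, Cd44 and Clu. Y-linked genes were added. The genes and lists were chosen with earlier results of these data known. CPM compares a gene between sections, since probe numbers per gene were not used here. Some genes that varied like Clu are not reported here.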

Additional observations from a re-analysis of the deposited data

How the results depend on the processing

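The number of genes called changed with the scaling and with single sections. It was 401 with DESeq2, 195 with library sizes alone, 3 with upper-quartile normalization, and 0 to 16701 when 1 section was left out (356 without Ehmt2+/+ replicate 1, 16701 without Ehmt2+/+ replicate 2, and 2 and 0 without Ehmt2 fl/fl replicates 1 and 2). With 0 called by edgeR there, 13 genes had an unadjusted p under 0.05 in the higher and 4 in the lower direction, and a lone section was assumed to vary like the other group. Leaving out the enzymes, the filter or lymphoid-tissue spots, or taking other spots, gave 18 to 22 calls. The causes were not tested.

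Of 96 alternative log2 fold changes of the 8 genes, 73 kept their direction and their side of the threshold. DESeq2 gave no adjusted p for Itgav, Itgb1, Itgb3, Itgb5 and Itgb6, and those that kept their direction were counted as keeping their side. With DESeq2, Spp1 was at −0.13, Clu at −2.99 and Itgb6 at −0.22. With library sizes alone, Spp1 was at 2.35, Cd44 at 2.73, Itgav at 2.10, Itgb1 at 0.83 and Itgb5 at 1.84, and with upper-quartile normalization Itgav was at 0.63 and Itgb5 at 0.53. Leaving out 1 section gave −0.40 to 1.40 for Spp1, 0.08 to 1.66 for Cd44, −3.35 to −0.92 for Clu, −1.19 to 1.84 for Itgav, −2.24 to 0.16 for Itgb1, −0.21 to 1.59 for Itgb3, −0.75 to 0.70 for Itgb5 and −0.27 to 0.63 for Itgb6.

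Differences in the share of spots kept their direction in 68 of 72 alternatives. The exceptions were unthinned spots, in which Itgav differed by −0.385 percentage points over tissue and −0.108 in spots with at least 500 UMIs, and Itgb1 by −4.58 and −4.11. Of 49 alternatives for the co-detection of Spp1, as mean log2 ratios, 45 moved by less than the spread between sections. In unthinned spots Itgb1 gave 0.17 and Itgb6 0.16, and per non-enzyme UMIs Itgb5 gave −0.0913 and Itgb6 0.00517. Of 78 alternatives for markers around Spp1, 71 moved by less than that spread. In unthinned spots the mean log2 ratio was 0.0509 for acinar, −0.19 for macrophage, −0.12 for neutrophil, −0.10 for fibroblast, −0.41 for smooth muscle, −0.0030 for endothelial and −0.59 for mesothelial markers.

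By enzyme share, 70 of 83 alternatives kept the direction, among them all those of Spp1. With limits at 10% and 40%, Clu differed between genotypes by 13.5 per 10000 in the middle and −33.5 in the high range, and the low range could not be compared, since a genotype had a section without such spots. In spots of 30% to under 40% and 40% to under 50%, Clu differed by 49.8 and 35.6 and, in the first of these, Itgav by −0.207. Leaving out 1 section gave −0.292 to 3.26 for Cd44 in enzyme-rich spots, −36.7 to 3.93 for Clu in the middle and −40.6 to 95.9 in the high range, and −0.0106 to 0.198 for Itgav, −0.0297 to 0.131 for Itgb1 and −0.101 to 0.0865 for Itgb3 in the middle range. The causes were not tested.

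No paired analysis was possible because the labels give the mice no numbers shared between the genotypes. With 2 sections against 2, no exact test can go below p = 0.333. Depth limits Cd44 above 50% enzyme UMIs, at 3 and 14 UMIs in the Ehmt2 fl/fl sections.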
